A study of Mus musculus with 9 samples.

Results

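The genes described here are 39 genes of glycolysis and of the transcriptional response to low oxygen, taken by symbol from a list, each represented by its brightest probe set, that is the one with the highest mean over 9 arrays among those the annotation ties to 1 gene. Of the 39, 35 had such a probe set and 33 passed a filter on dim probe sets, a mean above 4.03 on the log2 scale. These 33 stand among 12400 genes tested and 18193 with a probe set of their own. Ankrd37 (3.51 to 4.22 over the arrays) and P4ha2 (3.56 to 4.22) fell below the filter, Gpi1, Eno1 and Bnip3l were not analysed here, and Gapdh was read only through 3 control probe sets of the array.

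The cells were Lin-Sca1+cKit+ (LSK) bone marrow cells, the fraction that holds the hematopoietic stem cells and multipotent progenitors, sorted from C57BL/6 mice 8 weeks after transplantation. Recipients in all groups had been lethally irradiated. The first group of 3 arrays held LSK cells of control mice given wild-type LSK cells. The others, with 3 arrays each, came from recipients of donor cells transduced with a retrovirus carrying a transgene that the labels call dnMPL, with GFP as the mark of the cells that carried it: 1 group was their GFP-negative and 1 their GFP-positive LSK fraction. For every array the marrow of 2 to 5 animals was pooled. The labels do not say whether the control cells carried a vector, what promoter drove the transgene, or whether GFP-negative and GFP-positive samples came from the same mice, so transduction and dnMPL cannot be told apart in the comparisons with control. Of genes that mark LSK cells or subsets of them, Kit, which encodes the cKit of the sort (6.38 to 8.73), Cd34 (9.31 to 10.5) and Flt3 (8.67 to 9.28) were above the filter on every array (Kit read 6.38 on GFP-positive 2 and at least 7.92 elsewhere), the mean of Slamf1 was below it, and Ly6a, which encodes Sca1, was not analysed here.

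Glycolysis splits glucose into pyruvate, and lactate dehydrogenase turns pyruvate into lactate where it is not passed to mitochondria. Pyruvate dehydrogenase kinases close the entry to mitochondria. The hypoxia inducible factors, heterodimers of an oxygen-regulated alpha subunit (HIF1A, or HIF2A, encoded by Epas1) and ARNT, are marked for destruction by prolyl hydroxylases when oxygen is present. When oxygen is low they bind a short core motif and raise transcription of glucose transporters, glycolytic enzymes, Vegfa and Bnip3. Hematopoietic stem cells lie in a marrow environment of low oxygen and are known to rely on glycolysis.

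The array reads RNA, and HIF acts at promoters, so the promoters of some of the members described below are shown first. RefSeq promoter windows (GRCm38.p6, the 250 bases before each transcription start) were found for 35 of the 39 genes. The core of the hypoxia response element was searched as ACGTG and GCGTG on both strands. An E-box, CACGTG, holds ACGTG on both strands and so counts as a pair of matches. At least 1 core was present in a window of 33 of 35 members (94.3%), against 59.3% of the genes tested on these arrays and 41.5% of the 27025 genes of the table. The median GC content was 62.0% in the members' windows, 59.2% in those of the genes tested and 52.4% in all windows, and both cores hold a CpG. By windows, all of the same length, 25 of the members' 50 held ACGTG, against 21.1% of windows of the genes tested and 16.6% of all. For GCGTG these shares were 58.0%, 42.7% and 28.2%, and for the E-box 14.0%, 8.16% and 6.02%. The members were chosen as known glycolysis and hypoxia genes, so these shares are a description of the list. The windows below belong to members picked by hand, Slc16a1, Pfkp, Ldha, Ldhb, Bnip3 and Ddit4, whose array values are followed further down. Pfkm, Pdk3 and Slc2a1 also had an unadjusted p under 0.05 (limma) in a comparison with control and are not shown. The Pfkm windows held 2, 2, 1 and 0 core matches, that of Pdk3 4 and that of Slc2a1 2. Core matches on either strand are in capitals, and each window is written 5′ to 3′ on the strand of its gene. Ldha has a second start in the table, and the window of the first is shown.
Slc16a1 (chr3:104638414-104638663, plus strand): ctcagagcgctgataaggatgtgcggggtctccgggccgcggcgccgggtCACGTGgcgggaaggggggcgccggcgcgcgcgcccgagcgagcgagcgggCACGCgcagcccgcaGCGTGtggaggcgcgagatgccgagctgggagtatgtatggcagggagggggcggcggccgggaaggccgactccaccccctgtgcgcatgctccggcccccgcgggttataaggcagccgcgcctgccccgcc
Pfkp (chr13:6648772-6649021, minus strand): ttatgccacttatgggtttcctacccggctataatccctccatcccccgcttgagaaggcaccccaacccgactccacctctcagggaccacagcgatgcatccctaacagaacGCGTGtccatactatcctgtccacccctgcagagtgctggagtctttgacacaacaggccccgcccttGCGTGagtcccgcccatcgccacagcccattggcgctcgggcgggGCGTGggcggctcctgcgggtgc
Ldha (chr7:46845554-46845803, plus strand): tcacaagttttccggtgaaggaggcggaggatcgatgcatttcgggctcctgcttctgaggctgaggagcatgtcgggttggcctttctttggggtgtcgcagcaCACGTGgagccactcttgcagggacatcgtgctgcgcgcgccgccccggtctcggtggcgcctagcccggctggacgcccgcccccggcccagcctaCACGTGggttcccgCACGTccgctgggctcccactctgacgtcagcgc
Ldhb (chr6:142507958-142508207, minus strand): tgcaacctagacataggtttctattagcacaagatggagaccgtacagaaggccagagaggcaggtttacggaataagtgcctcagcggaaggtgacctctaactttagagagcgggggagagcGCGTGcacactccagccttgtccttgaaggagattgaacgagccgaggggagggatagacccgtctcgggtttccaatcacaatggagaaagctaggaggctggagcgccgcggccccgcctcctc
Bnip3 (chr7:138909507-138909756, minus strand): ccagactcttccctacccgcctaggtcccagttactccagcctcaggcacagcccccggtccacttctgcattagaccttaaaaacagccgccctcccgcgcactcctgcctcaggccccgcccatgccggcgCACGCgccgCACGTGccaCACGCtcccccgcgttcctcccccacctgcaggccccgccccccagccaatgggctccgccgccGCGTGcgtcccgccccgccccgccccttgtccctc
Ddit4 (chr10:59951771-59952020, minus strand): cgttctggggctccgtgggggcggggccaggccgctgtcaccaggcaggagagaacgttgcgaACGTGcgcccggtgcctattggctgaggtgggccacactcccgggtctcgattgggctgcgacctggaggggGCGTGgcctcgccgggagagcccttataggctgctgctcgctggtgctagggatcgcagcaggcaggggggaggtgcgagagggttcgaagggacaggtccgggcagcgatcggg
The Ldha window shown held 5 matches, from a pair of E-boxes and 1 further ACGTG on the other strand. Its second window held 1. Bnip3 also held 5 matches, Slc16a1 held 4, Pfkp 3, Ddit4 2 and Ldhb, the sister gene of Ldha, 1. A match is a string of letters and does not show that HIF binds there.

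In GFP-positive against control cells, in GFP-negative against control cells and between the GFP fractions, 0 of 33 members passed an adjusted p of 0.05 (limma, Benjamini-Hochberg over all genes tested), and 0% of the 12400 genes tested did. The smallest adjusted p among members was 0.642, 0.707 and 0.9998 in these comparisons. No direction given below is therefore a called change, and the members are described by their values. At an unadjusted p under 0.05, 7 members (21.2%) stood out in GFP-positive against control cells, against 6.49% of all genes tested. These were Slc16a1, Pfkp and Pdk3 with higher values (3 of 33, 9.09%, against 3.3% of all genes) and Pfkm, Ldhb, Bnip3 and Ddit4 with lower values (4 of 33, 12.1%, against 3.19%). That count rests on single arrays: it was 3 without control 1 (5.91% of all genes) or GFP-positive 2 (5.49%), and 4 without control 2 (7.25%), GFP-negative 2 (5.53%) or GFP-positive 1 (5.52%). Without GFP-positive 3 it was 10 (9.1% of all genes). It was 2 (6.06%, against 6.3% of all genes) without control 3 and GFP-positive 2, namely Hk2 and Eno3, with none of the 7 named. Eno3 passed the filter only through the dnMPL arrays, as described below. The genes changed in other settings too. Without GFP-positive 2 they were Pfkm, Pfkp and Aldoa. Without control 3 they were Slc2a3, Slc16a3, Hk2, Pfkm and Ddit4 (5 members, against 6.73% of all genes). In GFP-negative against control cells 3 members (9.09%) had an unadjusted p under 0.05, all lower (Slc2a1, Ldhb and Ddit4), against 5.57% of all genes, 2.74% lower and 2.83% higher. The count was 1 without GFP-negative 1 (4.12% of all genes), GFP-negative 2 (4.36%) or GFP-positive 1 (5.38%), and 2 without control 1 (5.14%) or GFP-positive 3 (5.37%). It was 5 without GFP-negative 3 (5.19%) or GFP-positive 2 (6.89%). Between GFP-positive and GFP-negative cells the count was 0 of 33, against 2.55% of all genes (1.28% higher and 1.27% lower), and it was 2 without GFP-negative 3 (2.1% of all genes) and 4 without GFP-positive 3 (6.81%).

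The median difference of the 33 members was 0.12 on the log2 scale in GFP-positive against control cells, with 18 higher and 15 lower, beside a median of -0.028 over all genes tested, of which 47.2% were higher. Eno3 and Epas1, with control means of 3.92 and 3.68, passed the filter only through the dnMPL arrays, so their place among the higher ones was set by the filter. This holds for GFP-negative against control cells as well. There the members' median was 0.063 (17 higher, 16 lower, beside -0.038 over all genes, 46.5% of them higher). Between GFP-positive and GFP-negative cells it was 0.041 (19 higher, 14 lower, beside 0.015 over all genes, 51.8% of them higher). None of these medians exceeded 0.130, the SD of the members' median within groups from array to array. That SD describes single arrays and is not the error of a difference between group means. The comparisons with control share the 3 control arrays, and both comparisons of GFP-positive cells share theirs. A member's standard error was 0.42 at the median, so the unadjusted 95% interval of a typical difference reached 0.942 to either side. With 3 arrays a group, a typical difference smaller than that would not reach even an unadjusted p of 0.05. The threshold adjusted over all genes tested asks for more. Ldhb, at -2.10 in GFP-negative against control cells, did not pass it (limma, adjusted p = 0.707). Shifts larger than 0.942 are therefore not excluded by the absence of a call. In bulk samples such as these, fewer cells with a gene on and less RNA of it per cell cannot be told apart. The labels do not say that the arrays of a group came from separate transplantations, so the p-values measure the spread between these pooled samples.

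**Figure D1:**
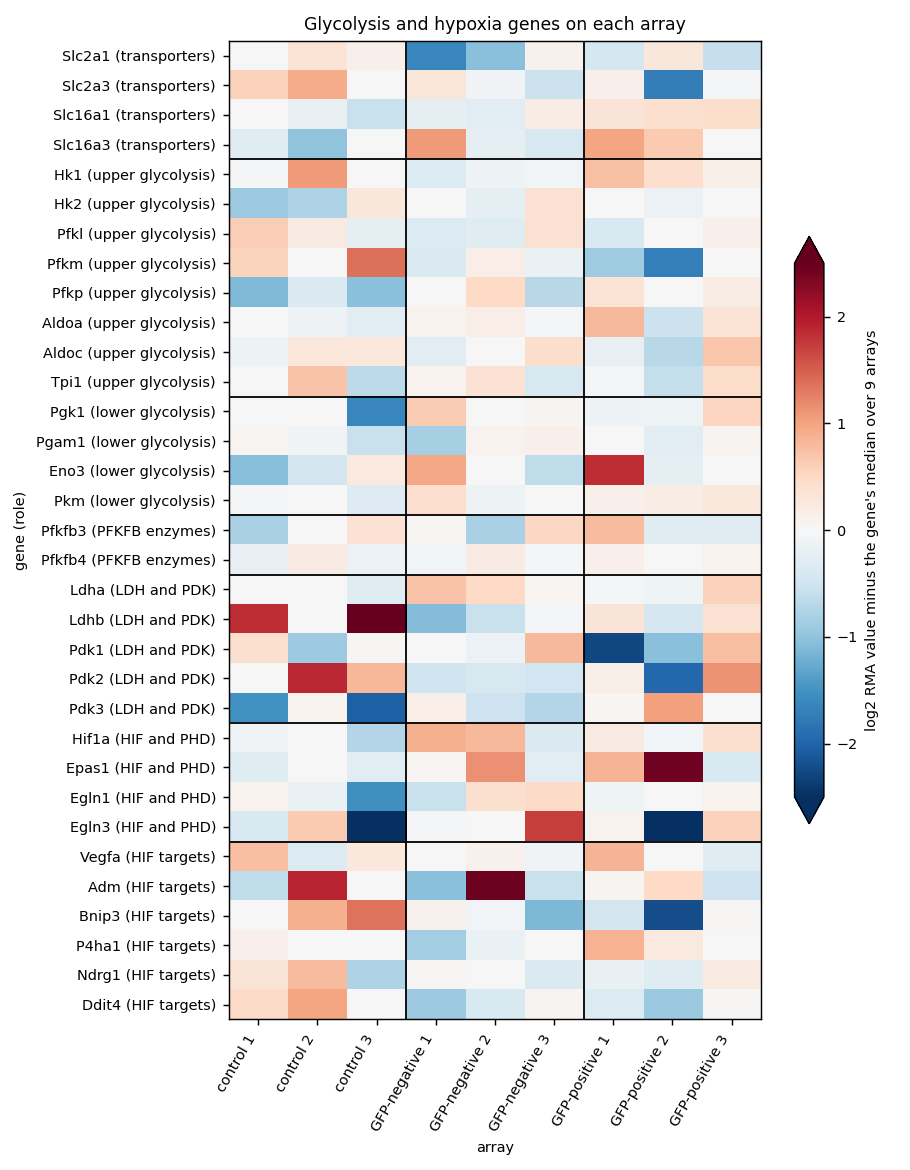
Heat map of the 33 tested members, 1 row per gene grouped by role, and the 9 arrays in columns; colour is the log2 RMA value minus that gene's median over the arrays, with colours ending at the arrows of the scale. The 3 groups, divided by vertical lines, hold red and blue cells alike, and control 3 gives the lowest value for 9 members.

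The arrays were not alike in weight. Control 3 and GFP-positive 2 had array weights of 0.364 and 0.369 when limma estimated them from the spread of all genes, and the other arrays had 0.809 to 2.38. Control 3 gave the lowest value of the 9 arrays for 9 of 33 members (27.3%, against 18.9% of all genes tested), and GFP-positive 2 for 8 (24.2%, against 18.1%). Gapdh, the glyceraldehyde phosphate dehydrogenase of mid-glycolysis, is read on this array by control probe sets at the 3′ end, the middle and the 5′ end of its transcript, which also serve as a measure of RNA integrity. The 3′ control read 12.60, 12.61 and 12.56 on the control arrays, 12.61, 12.64 and 12.60 in GFP-negative cells and 12.65, 12.96 and 12.70 in GFP-positive cells. The 3′ control thus stayed within 0.40 over the 9 arrays, with the GFP-positive values above all others (12.65 at the lowest, against 12.64). The middle control varied more, from 10.35 on control 3 to 11.36 on GFP-negative 3. The 5′ control read 9.83, 9.79 and 8.69 on the control arrays, 9.93, 9.86 and 9.71 in GFP-negative cells and 9.85, 9.73 and 10.23 in GFP-positive cells. The 3′ to 5′ gap was 3.87 on control 3 and 3.22 on GFP-positive 2, against 2.47 to 2.89 on the other arrays. Control 3 had the lowest 5′ value and GFP-positive 2 the highest 3′ value. The part of this in the members' values was not tested; several differences are also given without these arrays.

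**Figure D2:**
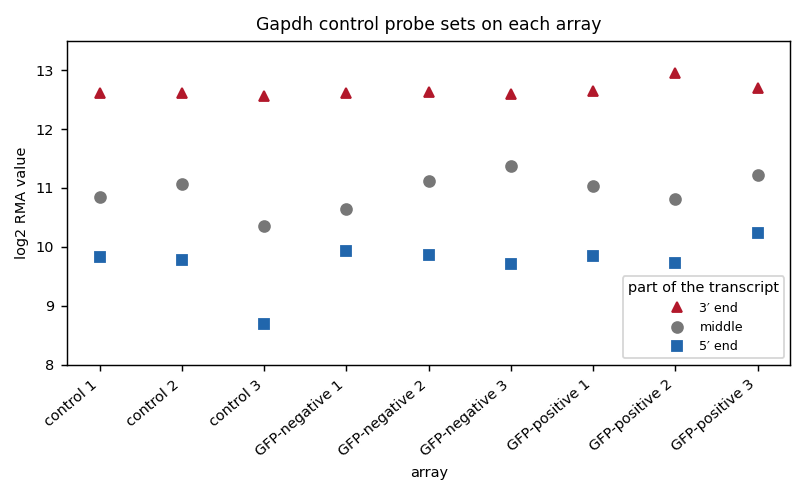
Log2 RMA value (y axis) of the 3 Gapdh control probe sets on each of the 9 arrays (x axis); triangles mark the 3′ end, circles the middle and squares the 5′ end. The 3′ values lie between 12.56 and 12.96, while the 5′ value of control 3, at 8.69, lies below the other 8 arrays, at 9.71 to 10.23.

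Of the transporters, Slc2a1 encodes GLUT1, the basal glucose carrier. Slc2a1 read 9.65, 9.99 and 9.78 in control cells, 8.02, 8.59 and 9.75 in GFP-negative cells and 9.21, 9.94 and 9.06 in GFP-positive cells. GFP-negative 1 and 2 lay below every control array and GFP-negative 3 among them. The difference was -1.02 ± 0.44 (SE, n = 3 against 3) in GFP-negative against control cells (limma, adjusted p = 0.876) and -0.40 ± 0.44 in GFP-positive against control cells, or -0.67 without GFP-positive 2. It was -0.64 in GFP-negative against control cells without GFP-negative 1. All 3 Slc2a1 probe sets gave lower means than control in both fractions, from -1.02 to -0.43 in GFP-negative cells. Slc16a1 encodes MCT1, which carries lactate and pyruvate across the membrane. Slc16a1 read 7.97, 7.78 and 7.41 in control cells, 7.75, 7.70 and 8.15 in GFP-negative cells and 8.30, 8.36 and 8.41 in GFP-positive cells. The GFP-positive arrays lay within 0.12 of each other and above all 6 other arrays. The difference in Slc16a1 was 0.64 ± 0.27 from control (limma, adjusted p = 0.732) and 0.49 ± 0.27 from GFP-negative cells (adjusted p = 0.9998). Slc2a3 (GLUT3) and Slc16a3 (MCT4, the lactate exporter) differed from control by -1.05 and 0.98 in GFP-positive cells and by -0.61 and 0.58 in GFP-negative cells, neither with an unadjusted p under 0.05. Slc2a3 in GFP-positive cells was -0.46 without GFP-positive 2, where it read 7.45.

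Hexokinases add the first phosphate to glucose and so trap it in the cell. Hk1 read 7.72, 8.81 and 7.74 in control cells, 7.39, 7.60 and 7.67 in GFP-negative cells and 8.46, 8.15 and 7.88 in GFP-positive cells. The GFP-negative arrays lay below all others, by as little as 0.046 from the lowest control array, and the difference from control was -0.53 ± 0.35. Without control 2 it was -0.17, and the mean of both Hk1 probe sets gave 0.093. GFP-positive minus GFP-negative Hk1 was 0.61 ± 0.35 on the brightest probe set and -0.11 on that mean. Hk2, the hexokinase that HIF is known to raise, read 6.73, 6.85 and 7.91 in control cells, 7.63, 7.40 and 8.01 in GFP-negative cells and 7.63, 7.47 and 7.63 in GFP-positive cells. GFP-negative 1, GFP-positive 1 and GFP-positive 3 had exactly the same Hk2 value, 7.62534, and such ties can make a spread look too small. Control 1 and 2 were the lowest of the 9 arrays in Hk2 and control 3 lay among the dnMPL arrays. The differences were 0.51 ± 0.35 in GFP-negative and 0.41 ± 0.35 in GFP-positive cells against control, 0.89 and 0.79 without control 3, and 0.29 and 0.19 without control 1, with limma adjusted p of 0.920 and 0.931 over all arrays.

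Phosphofructokinase makes the committed step of glycolysis and is built from muscle (Pfkm), liver (Pfkl) and platelet (Pfkp) type subunits. Pfkm read 6.96, 6.40 and 7.77 in control cells, 6.04, 6.56 and 6.24 in GFP-negative cells and 5.51, 4.69 and 6.42 in GFP-positive cells. The lowest Pfkm value came from GFP-positive 2, and GFP-positive 3 lay just above control 2, so the groups overlap. Its difference was -1.51 ± 0.48 in GFP-positive against control cells (limma, adjusted p = 0.642) and -0.72 without control 3 and GFP-positive 2. Pfkp read 6.25, 7.00 and 6.31 in control cells, 7.36, 7.86 and 6.66 in GFP-negative cells and 7.71, 7.36 and 7.54 in GFP-positive cells. The GFP-positive arrays lay above all control arrays on this probe set. Its difference was 1.02 ± 0.36 from control (limma, adjusted p = 0.702) in GFP-positive and 0.78 ± 0.36 in GFP-negative cells. The 3 Pfkp probe sets above the filter differed in sign: their GFP-positive against control differences ran from -1.10 to 1.02 and their mean was -0.055. In GFP-negative cells they ran from -1.50 to 0.78, with a mean of -0.16. The second Pfkp probe set read 8.47 on control 3 and 4.27 on GFP-positive 2, beyond all other arrays at either end. Pfkl had -0.45 to -0.28 over its 2 probe sets above the filter in GFP-positive against control cells.

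In the lower part of glycolysis, from Pgk1 on, ATP is made. Pkm encodes the pyruvate kinase of most cells, which yields pyruvate. Pkm read 10.06, 10.07 and 9.77 in control cells, 10.49, 9.96 and 10.08 in GFP-negative cells and 10.20, 10.26 and 10.34 in GFP-positive cells. GFP-positive arrays lay above control arrays, by a margin of 0.13, and the difference was 0.30 ± 0.26 (limma, adjusted p = 0.931). Pkm differed by 0.21 ± 0.26 in GFP-negative cells, and by 0.052 there without GFP-negative 1 and 0.11 without control 3. Pgk1, phosphoglycerate kinase, read 8.38 on control 3 and 9.88 to 10.6 on the other 8 arrays. Its difference was 0.78 ± 0.46 in GFP-negative and 0.65 ± 0.46 in GFP-positive cells against control, and 0.24 and 0.11 without control 3. Pgam1, phosphoglycerate mutase, differed by 0.12 in GFP-positive and -0.0057 in GFP-negative cells, and by -0.056 and -0.19 without control 3. Eno3, the muscle enolase, had a control mean of 3.92, below the filter, and passed it only through the dnMPL arrays, so no direction is read from it. None of these genes had an unadjusted p under 0.05.

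Lactate dehydrogenase is a tetramer of a muscle type subunit from Ldha and a heart type subunit from Ldhb. Ldha read 10.03, 10.03 and 9.73 in control cells, 10.75, 10.52 and 10.09 in GFP-negative cells and 9.98, 9.93 and 10.62 in GFP-positive cells. The GFP-negative arrays all exceeded the control arrays in Ldha, by 0.52 ± 0.30 (limma, adjusted p = 0.906), and the GFP-positive arrays did not, with 0.25 ± 0.30 and 0.026 without GFP-positive 3. Ldhb read 9.11, 7.25 and 9.99 in control cells, 6.17, 6.69 and 7.20 in GFP-negative cells and 7.58, 6.83 and 7.63 in GFP-positive cells. Every GFP-negative array lay below every control array in Ldhb, by 0.054 at the nearest, while the control arrays spread over 2.74. The Ldhb difference was -2.10 ± 0.62 in GFP-negative against control cells (limma, adjusted p = 0.707) and -1.44 ± 0.62 in GFP-positive against control cells (adjusted p = 0.753). It was -0.83 in GFP-positive against control cells without control 3 and -2.20 without control 2. The value of control 3 belonged to 1 probe set: the other 3 Ldhb probe sets read 6.34 to 6.70 on that array. With the mean of the 4 probe sets the difference was -0.85 in GFP-negative and -0.20 in GFP-positive cells, and 4 of the 4 were lower than control in GFP-negative cells, against 1 of 4 in GFP-positive cells. That count of 1 rests on control 3. Without control 3 the 4 probe sets gave -0.83, 0.0078, -0.45 and -0.19 in GFP-positive cells. Their mean was then -0.37 in GFP-positive and -1.015 in GFP-negative cells. Neither gene passed the test. The windows shown above hold 5 core matches for Ldha and 1 for Ldhb, and the second Ldha window holds 1.

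**Figure D3:**
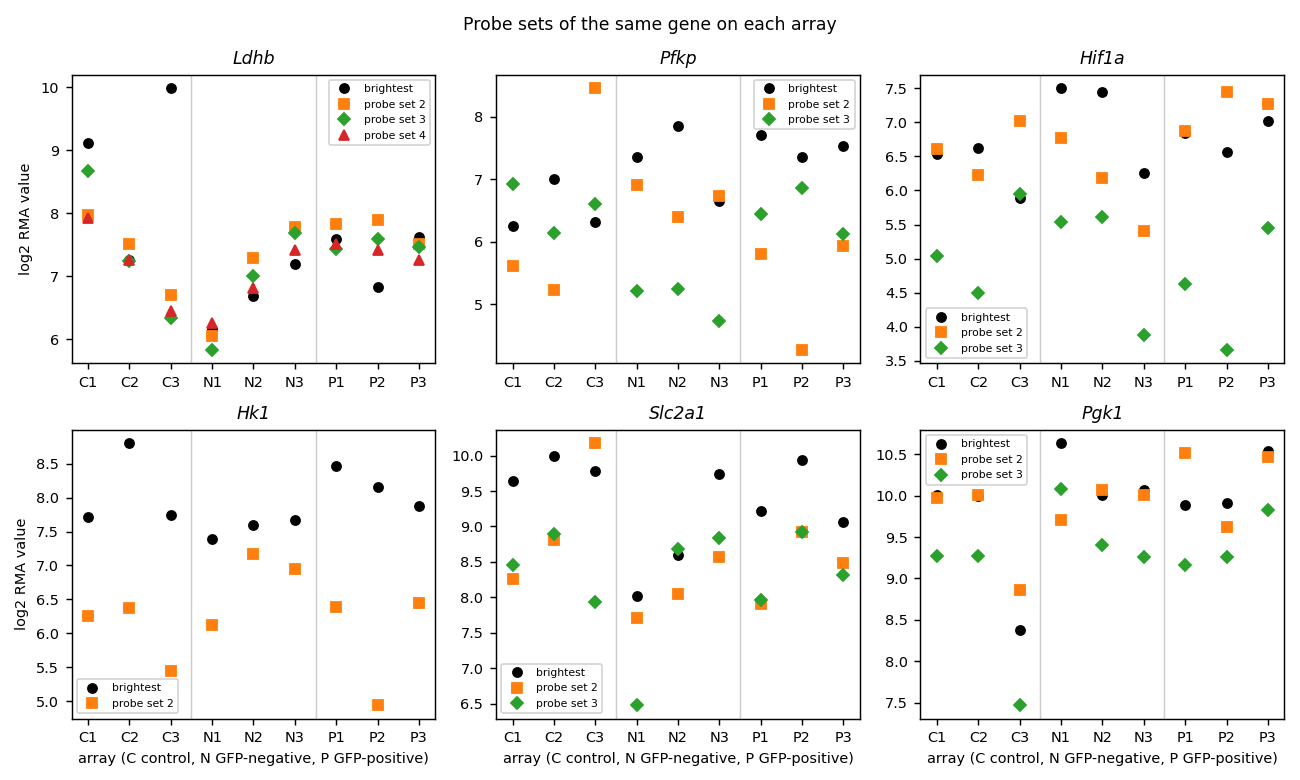
Log2 RMA value (y axis) on each array (x axis; C control, N GFP-negative, P GFP-positive) for every probe set above the filter of Ldhb, Pfkp, Hif1a, Hk1, Slc2a1 and Pgk1; black circles are the brightest probe set, which the fits use. For Ldhb on control 3 the brightest probe set lies at 9.99 and the other 3 between 6.34 and 6.70, and for Pgk1 all probe sets have their lowest value on control 3.

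The kinases encoded by Pdk1, Pdk2 and Pdk3 inactivate pyruvate dehydrogenase, and Pdk1 is a known HIF target. Pdk1 read 8.05, 6.74 and 7.67 in control cells, 7.65, 7.51 and 8.46 in GFP-negative cells and 5.37, 6.60 and 8.41 in GFP-positive cells. GFP-positive arrays held both the lowest and nearly the highest Pdk1 value, and the difference from control, -0.69 ± 0.69, went to 0.020 without GFP-positive 1. In GFP-negative cells it was 0.38 ± 0.69, and 0.011 without control 2. Pdk2 read 4.94, 6.81 and 5.77 in control cells, 4.43, 4.53 and 4.45 in GFP-negative cells and 5.08, 2.98 and 6.05 in GFP-positive cells. The GFP-negative arrays all lay below control and close to the filter of 4.03, with a difference of -1.37 ± 0.72 (limma, adjusted p = 0.898) that was -0.88 without control 2. Pdk3 read 5.93, 7.53 and 5.41 in control cells, 7.60, 6.93 and 6.71 in GFP-negative cells and 7.49, 8.46 and 7.44 in GFP-positive cells. Pdk3 in control 2 lay within the GFP-positive range. The Pdk3 difference was 1.51 ± 0.55 in GFP-positive against control cells (limma, adjusted p = 0.718), 0.74 without control 3 and GFP-positive 2, and 0.79 ± 0.55 in GFP-negative cells, or 0.35 there without control 3. The bifunctional enzymes of Pfkfb3 and Pfkfb4, which set the level of the main activator of phosphofructokinase, differed from control by 0.22 and 0.12 in GFP-positive cells and by 0.063 and 0.083 in GFP-negative cells, and Pfkfb4 spanned only 0.41 over the 9 arrays.

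Hif1a encodes the oxygen-regulated subunit itself, whose protein is set mainly by its destruction, which RNA does not show. Hif1a read 6.53, 6.62 and 5.89 in control cells, 7.51, 7.44 and 6.26 in GFP-negative cells and 6.85, 6.56 and 7.02 in GFP-positive cells. GFP-negative 1 and 2 were the highest of the 9 arrays and GFP-negative 3 lay within the control range. The Hif1a difference was 0.72 ± 0.39 in GFP-negative (limma, adjusted p = 0.899) and 0.46 ± 0.39 in GFP-positive cells against control. It was 1.12 in the former without GFP-negative 3 and 0.23 in the latter without control 3. The second Hif1a probe set gave -0.50 and 0.58 in these comparisons, the third -0.14 and -0.58, and the mean over all 4, 1 of them below the filter, -0.21 and -0.090, so the probe sets of Hif1a do not settle a direction. Epas1, known from endothelial cells, read 3.56, 3.87 and 3.62 in control cells, 3.91, 5.02 and 3.62 in GFP-negative cells and 4.72, 6.30 and 3.50 in GFP-positive cells. All control arrays of Epas1 lay below the filter value of 4.03. Above that value were GFP-positive 1 and 2 and GFP-negative 2, and no difference is given against control values below it. The log2 of the summed level of 7 endothelial and stromal markers (5 above the filter) was 7.73 to 8.39 on the control arrays, 8.57 to 9.38 on the GFP-negative and 8.66 to 9.49 on the GFP-positive arrays. Of those 5, 4 had higher means than control in each fraction: Pecam1, Fabp4 (4.34 to 5.63 in control cells, 6.98 to 8.59 on the dnMPL arrays), Col1a1 and Col1a2. Col1a1 read 4.14, 3.56 and 4.29 in control cells and Col1a2 3.97, 2.99 and 4.29. Both had control and GFP-negative means below the filter and passed it only through the GFP-positive arrays, so no direction is read from them. The endothelial marker Emcn went the other way, with 7.24, 6.72 and 4.59 in control cells and 3.79 to 4.69 on the dnMPL arrays. The markers thus do not move as 1, and the part of such cells in the Epas1 values was not tested. Egln1 and Egln3 encode prolyl hydroxylases that mark HIF for destruction. Egln3, itself a known HIF target, spread over 5.58 on the 9 arrays, from 3.21 on GFP-positive 2, and its standard error of 1.21 was the largest of the members.

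The last group is genes that HIF raises when oxygen is low. Vegfa, which draws in blood vessels, read 5.71, 4.62 and 5.23 in control cells, 4.96, 5.08 and 4.88 in GFP-negative cells and 5.81, 4.96 and 4.66 in GFP-positive cells. On this probe set the Vegfa groups overlapped throughout, with differences of -0.21 ± 0.38 and -0.043 ± 0.38 from control in GFP-negative and GFP-positive cells. The second Vegfa probe set above the filter gave -0.57 and 0.62. It read 3.62, 4.36 and 4.06 in GFP-negative cells and 4.97, 5.94 and 4.71 in GFP-positive cells, so these fractions did not overlap on it. Its level was close to the filter, and the 2 probe sets differ in sign for GFP-positive against control cells. Bnip3, a mitophagy receptor, read 6.39, 7.28 and 7.75 in control cells, 6.50, 6.32 and 5.26 in GFP-negative cells and 5.92, 4.17 and 6.42 in GFP-positive cells. Its lowest value came from GFP-positive 2, and GFP-positive 3 lay just above control 1. The Bnip3 difference was -1.64 ± 0.61 in GFP-positive against control cells (limma, adjusted p = 0.720), -0.97 without GFP-positive 2 and -0.66 without control 3 as well, and -1.11 ± 0.61 in GFP-negative cells. Ddit4 encodes REDD1, an inhibitor of mTORC1 made under stress. Ddit4 read 9.61, 10.12 and 9.14 in control cells, 8.23, 8.76 and 9.20 in GFP-negative cells and 8.79, 8.22 and 9.16 in GFP-positive cells. Most dnMPL arrays lay below the lowest control array and 1 of each fraction just above it. Ddit4 had differences of -0.90 ± 0.39 in both fractions (limma, adjusted p = 0.876 in GFP-negative and 0.745 in GFP-positive cells). Of the 6 tested HIF targets, Vegfa, Bnip3, Ddit4, Adm, P4ha1 and Ndrg1, 5 had lower means than control in GFP-positive cells and 6 in GFP-negative cells, with medians of -0.31 and -0.302, while 47.2% and 46.5% of all genes were higher. An unadjusted p under 0.05 was found for 2 of the 6 in GFP-positive and 1 in GFP-negative cells, against 6.49% and 5.57% of all genes. Without control 3 and GFP-positive 2 the lower ones were 4 and 6, with medians of -0.60 and -0.54. Of these 6, 5 had a promoter in the table, and each of the 5 had a core in at least 1 window. A separate list of 28 other tested hypoxia targets, described below, did not share this lower direction in either fraction. In GFP-positive against control cells 16 of the 28 were higher and 12 lower, with a median of 0.043. In GFP-negative against control cells 19 were higher and 9 lower, with a median of 0.265. No common direction of hypoxia targets is therefore read from the 6.

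**Figure D4:**
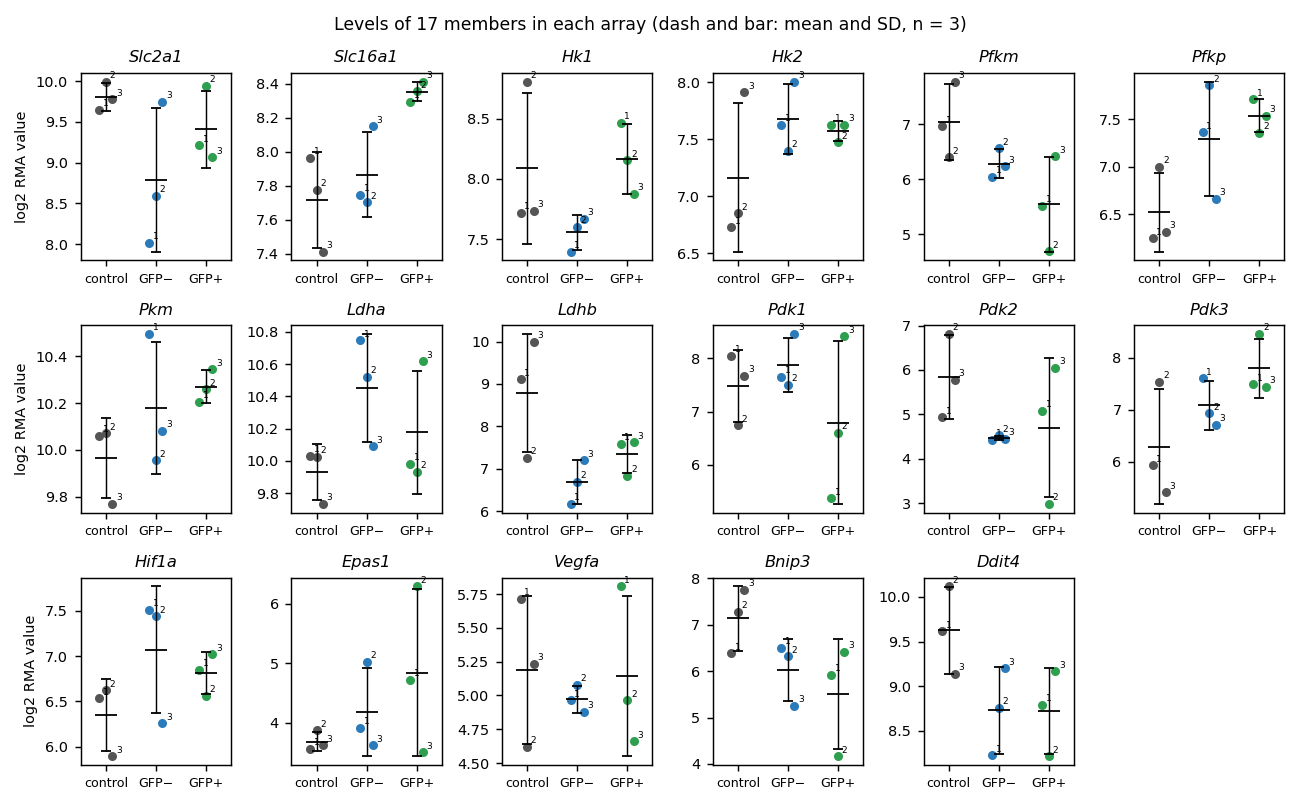
Log2 RMA value (y axis) of the 17 tested members given array by array, 1 panel per gene, with 1 numbered point per array in each group and the mean and SD (n = 3) as dash and bar; each panel has its own scale. The GFP-positive points of Slc16a1 lie above all others, whereas those of Pdk1 spread over 3.04 and those of Bnip3 over 2.25.

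The other 16 tested members, Slc2a3, Slc16a3, Pfkl, Aldoa, Aldoc, Tpi1, Pgk1, Pgam1, Eno3, Pfkfb3, Pfkfb4, Egln1, Egln3, Adm, P4ha1 and Ndrg1, had 9 higher and 7 lower means in GFP-positive against control cells, from -1.05 (Slc2a3) to 0.98 (Slc16a3), and a smallest unadjusted p of 0.0608. In GFP-negative against control cells 8 were higher and 8 lower, from -0.61 (Slc2a3) to 1.40 (Egln3), with a smallest p of 0.123 for Pgk1. Eno3 counts as higher in both comparisons with control, a place that was set by the filter, as said above. Between GFP-positive and GFP-negative cells 9 were higher and 7 lower, from -1.62 (Egln3) to 0.71 (P4ha1, a collagen prolyl hydroxylase). Egln3 was -0.23 there without GFP-positive 2, and 0.43 in GFP-negative against control cells without control 3. Adm, which encodes the vasodilator adrenomedullin, spanned 3.49 over the 9 arrays, and the middle member by range spanned 1.61. Groups did not overlap for 3 members in GFP-positive against control cells (Slc16a1, Pfkp and Pkm, all higher), which is 9.09%, against 8.61% of all genes tested, 4.35% higher and 4.26% lower. In GFP-negative against control cells there were 4 (Ldha higher, Hk1, Ldhb and Pdk2 lower), which is 12.1%, against 11.4% of all genes, 4.94% higher and 6.47% lower. Between the fractions there were 2 (Slc16a1 and Hk1, higher in GFP-positive cells), which is 6.06%, against 6.4% of all genes, 3.96% higher and 2.44% lower. The members' shares are near those of all genes.

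**Figure D5:**
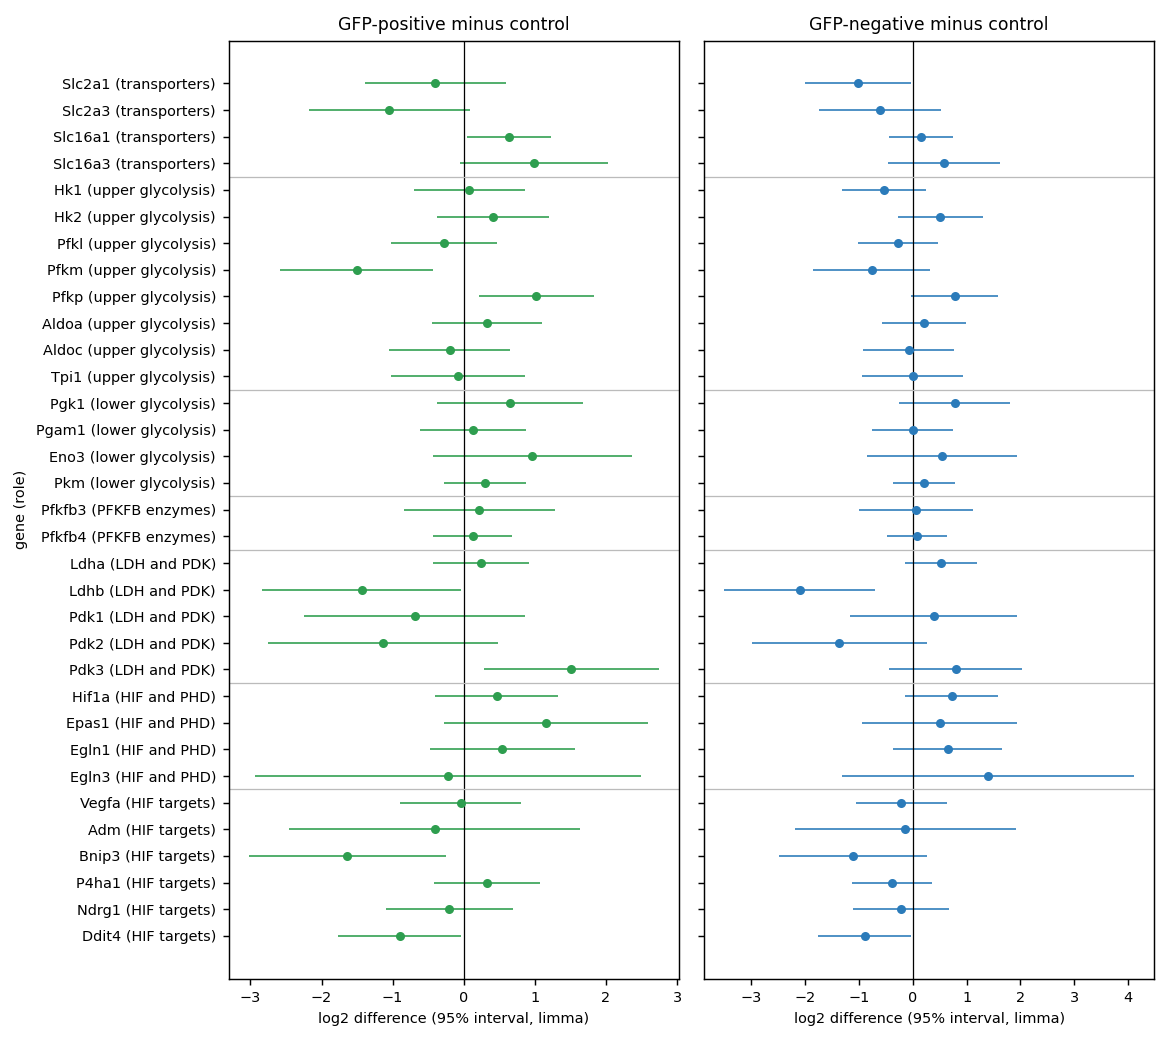
Log2 difference of each tested member (y axis, grouped by role) in GFP-positive and in GFP-negative cells against control (panels), on the x axis as a point with its 95% interval from limma as a line. The intervals of 7 members in the first panel and of 3 in the second do not reach 0, and they are not adjusted for the number of genes.

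Members measured by several probe sets also gave the size of disagreement within a gene. For 18 members with more than 1 probe set above the filter, all of a gene's probe sets differed in the same direction for 7 in GFP-positive against control cells, 11 in GFP-negative against control cells and 8 between the fractions. Aldoa, the main aldolase, had 5 probe sets at 0.20 to 0.41 in GFP-positive against control cells, and at -0.0063 to 0.36 without control 3. Pgk1 had 3 at 0.59 to 0.75, which share the low value of control 3 and were at 0.11 to 0.21 without it. Ndrg1, a stress-response gene, had 5 at -0.66 to -0.13 in GFP-negative cells. In GFP-positive against control cells Egln3 had values on both sides, at -0.22 and 0.11.

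Beyond the members, 101 further genes of the same pathways were read from a list: other glycolysis genes, pyruvate and lactate handling, the pentose phosphate and glycogen routes, HIF pathway components and other hypoxia targets. Of these 92 had a probe set and 81 were tested, and 0 passed an adjusted p of 0.05 in any comparison. At an unadjusted p under 0.05 there were 8 in GFP-positive against control cells (9.88%, against 6.49% of all genes), 7 in GFP-negative against control cells (8.64%, against 5.57%) and 2 between the fractions (2.47%, against 2.55%). Pklr, the pyruvate kinase of red cells and liver, read 5.25, 5.73 and 5.70 in control cells, 8.33, 8.02 and 7.36 in GFP-negative cells and 6.79, 5.72 and 6.61 in GFP-positive cells. The GFP-negative arrays lay above all others in Pklr, by 2.34 ± 0.38 over control (limma, adjusted p = 0.327), and GFP-positive cells differed from GFP-negative cells by -1.53 ± 0.38 (adjusted p = 0.9998). Tfrc, the transferrin receptor, a HIF target that also marks erythroid cells, differed from control by 1.67 ± 0.38 in GFP-positive (limma, adjusted p = 0.433) and 1.45 ± 0.38 in GFP-negative cells (adjusted p = 0.605). Tigar, which draws sugar from glycolysis towards the pentose phosphate route, differed by 1.22 ± 0.34 in GFP-negative cells (limma, adjusted p = 0.654). Plod2, a collagen lysyl hydroxylase, differed by -1.55 ± 0.44 between GFP-positive and GFP-negative cells (limma, adjusted p = 0.9998).

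Markers of other cells differed between the groups, as a description. The log2 of the summed level of 10 matched erythroid markers was 8.96 to 9.42 on the control arrays, 10.7 to 11.0 on the GFP-negative arrays and 11.0 to 11.1 on the GFP-positive arrays, with 9 of the 10 above the filter. That of 13 granulocyte markers was 12.4 to 14.3, 14.1 to 15.4 and 14.8 to 15.7, and all 13 had higher means than control in both fractions, by 2.61 at the median in GFP-positive and 2.24 in GFP-negative cells. That of 7 monocyte and macrophage markers, 6 of them above the filter, was 9.58 to 11.3, 10.6 to 12.02 and 11.3 to 12.9, but only 3 of those 6 had higher means than control in either fraction. Of 9 erythroid markers above the filter 8 were higher in GFP-positive and 7 in GFP-negative cells, of 5 mast cell and basophil markers 4 in both, and of 4 megakaryocyte markers 1 in both. In control cells the erythroid marker Slc4a1 read 3.19, 2.20 and 4.94 and the mast cell marker Mcpt4 3.44, 2.84 and 3.56. Their control means were below the filter, which they passed only through the dnMPL arrays. Their place among the higher ones was thus set by the filter. Pklr and Tfrc are expressed by erythroid cells, and the part of these other cells in any difference of a member was not tested.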

How the data were processed

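RNA of 9 sorted LSK samples was amplified and biotin-labelled, and each sample was read on 1 mouse Affymetrix array, per the labels' protocols. The deposited values are log2 RMA values (background-corrected, quantile-normalized, summarised per probe set), per the submitters' processing notes, which give no version. Scanner files were not analysed here. Of 45101 probe sets, 64 were controls; of the others the platform annotation names 1 gene for 34945, several for 932 and none for 9160. Each gene took its brightest probe set among those with 1 gene, kept where its mean over the arrays exceeded the 40th percentile of all probe sets (4.03).

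Group means were fitted over all 9 arrays with lmFit and eBayes of limma 3.58.1 (R 4.3.3, with statmod 1.5.0), with Benjamini-Hochberg adjustment over 12400 genes and a threshold of 0.05; the script was tested on simulated data. A difference is the first group's mean minus the second's, on the log2 scale. With 3 arrays against 3, an exact permutation test cannot go below p = 0.1. The number of arrays limits the precision. Median polish can tie arrays, which can make a spread look too small.

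The members and all lists were chosen with earlier results of these data known, so no set test was run. Values on every array are given for members with an unadjusted p under 0.05, for members whose groups do not overlap in a comparison with control, and for Slc2a1, Hk2, Gapdh, Pkm, Ldha, Pdk1, Hif1a, Epas1 and Vegfa; other members named with a value were chosen after their values were seen. Other pathway genes are named at an unadjusted p under 0.01. Promoter windows came from RefSeq (GRCm38.p6). The array's own genome build is not given in the sources used here. Other settings tried concerned the threshold, a replicate block, array weights, the variance prior, normalization, averaging of probe sets, the filter on dim ones, and which arrays entered the fit. Figures used matplotlib 3.10.9 in Python 3.11.15.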

Additional observations from a re-analysis of the deposited data

How the results depend on the processing

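Under every alternative run, 0 of the members passed the threshold in each of the 3 comparisons (limma), including a threshold of 0.1. The members' median in GFP-positive against control cells was -0.012 when each gene's probe sets were averaged and ranged from -0.021 (without control 3) to 0.29 (without control 2) when each array was left out. Between GFP-positive and GFP-negative cells it was 0.19 without control 3 and GFP-positive 2 together and ranged from -0.038 to 0.19 (without GFP-positive 2) with each array left out. In GFP-negative against control cells it was -0.055 with averaged probe sets and ranged from -0.0069 to 0.18 with each array left out. The cause was not tested. Of 29 differences of members the naming rule takes, 21 kept their direction in every alternative; averaging probe sets turned 6 (Pfkp, Hif1a and Vegfa in GFP-positive, Hk1 and Hif1a in GFP-negative cells against control, Hk1 between the fractions). The others that turned were Vegfa, with array weights or with single arrays left out, and Pdk1 without GFP-positive 1. With the stricter filter 24 of the 29 had a value. At an unadjusted p under 0.05 averaged probe sets gave 5 members in GFP-positive cells against control (15.2%, against 6.74% of all genes) and 1 in GFP-negative cells (against 6.25% of all genes). Same-numbered arrays of different groups gave correlations of their deviations of -0.290 to 0.101, with 1 of 9 over 0.1. Arrays with other numbers gave -0.113 to 0.278, with 3 of 18 over 0.1. The numbers thus gave no sign of pairing, but so few arrays cannot exclude that samples of 1 number came from the same mice. With the replicate number as a block, 0 members passed the threshold, and 7, 1 and 0 had an unadjusted p under 0.05 in the 3 comparisons, against 6.54%, 5.03% and 2.48% of all genes. Signal over background limits dim members: Ankrd37, P4ha2, Epas1 and Pdk2 lay near the filter on some or all arrays.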
